A study of Rattus norvegicus with 10 samples.

Results

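Egr1, Atf3, Nr4a2, Ptgs2 and Nos2, 5 genes known to be induced soon after a stimulus, were followed in the shaft of the rat tibia 6 hours after a single session of bending or of squeezing. They were taken from the 4803 accessions spotted on the arrays as the rows that carry the RefSeq accessions NM_012551 (Egr1), NM_012912 (Atf3), NM_019328 (Nr4a2), NM_017232 (Ptgs2) and NM_012611 (Nos2), so the rule used no measured value. The choice of these genes was, however, made with earlier results of these data known. All 5 were found, and all passed the filter of at most 1 missing value over 10 arrays that left 4707 accessions in the test.

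The 10 arrays came from 10 female Wistar rats, 12 weeks old, with 5 rats in each of the groups LOAD and SHAM. Under general anesthesia the right tibia of a LOAD rat was bent for 300 cycles at 2 Hz at a peak force setting of 60 N, while that of a SHAM rat was squeezed between pads that do not bend the bone. The untouched left tibia served as contra lateral control and shared the other channel of the array, so every ratio below is, by the labels, treated over control within 1 rat. RNA was neither pooled nor amplified. Both tibiae of a rat shared the anesthesia, and no tibia of an unhandled rat was analysed here.

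These genes sit at different steps of the response of a cell to a stimulus. Egr1 is a zinc finger transcription factor, switched on through serum response factor and MAP kinase signalling. Atf3 is a stress-induced transcription factor of the ATF/CREB family, and Nr4a2 is an orphan nuclear receptor induced by cAMP. Ptgs2, or cyclooxygenase-2, makes the prostaglandin precursor, and Nos2 is the inducible nitric oxide synthase. Prostaglandins and nitric oxide are known as messengers released by osteocytes and osteoblasts under mechanical load. Transcripts of early response genes commonly rise and fall again within hours.

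The RefSeq promoter table held 3 of the 5 genes. The 250 bases before the annotated start are shown for Egr1 and Ptgs2, the genes with the highest and the lowest mean ratio in LOAD, both on the plus strand of GRCr8 (Egr1 at chr18:26736828-26737077, Ptgs2 at chr13:64713813-64714062). Capitals mark the serum response element and the letters TGACG on either strand.
Egr1: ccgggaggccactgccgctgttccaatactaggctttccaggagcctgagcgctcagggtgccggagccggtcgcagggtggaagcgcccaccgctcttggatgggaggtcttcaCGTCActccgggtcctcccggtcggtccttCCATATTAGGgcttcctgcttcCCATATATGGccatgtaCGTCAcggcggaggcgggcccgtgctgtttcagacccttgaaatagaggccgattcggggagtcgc
Ptgs2: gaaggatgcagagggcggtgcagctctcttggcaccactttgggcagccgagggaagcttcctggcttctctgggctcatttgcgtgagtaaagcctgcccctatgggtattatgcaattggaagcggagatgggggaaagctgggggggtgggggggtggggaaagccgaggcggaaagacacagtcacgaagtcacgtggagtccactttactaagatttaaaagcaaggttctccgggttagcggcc
The Egr1 window held 2 serum response elements, starting 105 and 83 bases before the start, and 2 matches to TGACG, starting 135 and 66 bases before it, with no overlap between them. A serum response element was found in 1.5% of 33469 rat promoter windows of this length and TGACG in 18.2%. The Ptgs2 window held neither. The Nr4a2 window of the table lies inside the annotated span of the gene and was not used. A match describes these letters and is not a binding site, and the absence of a match says only that the letters are not in this window.

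Signal above background was the first difference between the genes. The scanner software gives each channel of a spot a signal probability, here read as signal from 0.5 upwards, and the row of fused empty spots gives the background of each channel. Egr1 had signal in 20 of 20 channels, at 4.88 to 17.9 times the empty spots (median 9.03). Nos2 had signal in 20 of 20 as well, at 4.08 to 31.8 times the empty spots (median 14.5). Of all accessions, 49.6% had signal in every channel, so this is the common state on these arrays. Depth of signal differed between arrays, with signal in both channels for 52.4% of the spots on LOAD 4, the lowest, and 81.6% on LOAD 3, the highest.

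Atf3 had signal in 17 of 20 channels, at 2.05 to 6.27 times the empty spots. The 3 channels without signal were the treated tibia of LOAD 2 and both tibiae of LOAD 4. Nr4a2 had signal in 2 of 20 channels, both tibiae of LOAD 3, with probabilities of 0.81 in the loaded and 0.65 in the control tibia. Ptgs2 also had signal in 2 of 20, the control tibia of LOAD 3 (0.80) and that of SHAM 1 (0.50). The median intensity was 1.77 times the empty spots for Nr4a2 and 1.95 times for Ptgs2, and 16.1% of all accessions had signal in 2 or fewer channels. The ratios of Nr4a2 and Ptgs2 therefore compare values that mostly lay near the background, and no loaded tibia had signal for Ptgs2.

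**Figure D1:**
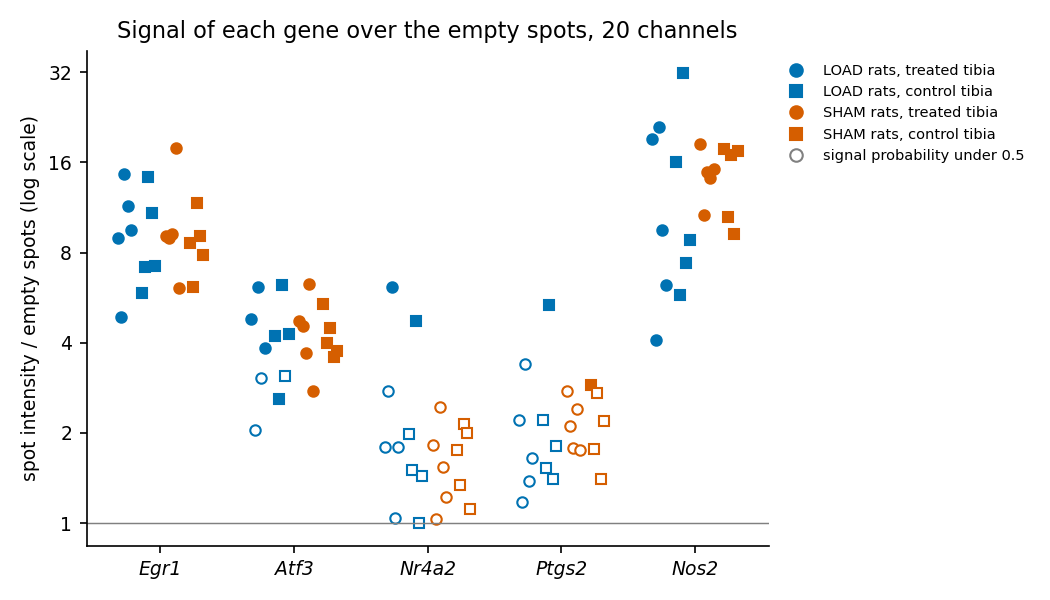
Spot intensity divided by that of the empty spots on a log scale, for the 5 genes in the 20 channels, by group and tibia, with open symbols for channels whose signal probability was under 0.5. Egr1 and Nos2 had signal in all 20 channels, Atf3 in 17, and Nr4a2 and Ptgs2 in 2 each.

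The first comparison asked whether the bent tibia differed from its unbent partner. Egr1 was higher in the loaded tibia of 4 of 5 LOAD rats. Its log2 ratio was 0.42 in LOAD 1, -0.06 in LOAD 2, 0.31 in LOAD 3, 0.20 in LOAD 4 and 0.51 in LOAD 5. LOAD 2 was the only array on which the loaded tibia was not the higher one. The mean was 0.27 ± 0.22 (SD, n = 5), a 1.21-fold difference with a 95% interval of 1.06 to 1.38. The moderated statistic of limma gave an unadjusted p of 0.0089, rank 26 of 4707 genes, and after Benjamini-Hochberg adjustment a limma p of 1.00, so Egr1 did not pass the threshold of a 20% false discovery rate. No gene of the 4707 passed it (0%), while 3.34% of them had an unadjusted p under 0.05 in limma, 1.61% as higher and 1.72% as lower in the loaded tibia. The exact sign-flip test gave p = 0.125, two-sided, where 5 arrays allow no p below 0.0625. A ratio above 0 on at least 4 of 5 LOAD arrays was found for 14.8% of the genes without missing values. Normalization by each array's median in place of loess gave 0.21 with an unadjusted limma p of 0.0874.

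Atf3 showed ratios of both signs in LOAD. Its log2 ratio was 0.06, -0.26, 0.14, 0.05 and -0.07 in LOAD 1 to LOAD 5. The mean of -0.02 ± 0.16 (SD, n = 5) was smaller than the spread, and the 95% interval of the fold ran from 0.866 to 1.13. The adjusted limma p was 1.00.

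Nr4a2 was above its control on 3 of the 4 LOAD arrays that measured it. The log2 ratio was -0.13 in LOAD 1, 0.51 in LOAD 3, 0.14 in LOAD 4 and 0.27 in LOAD 5, and the spot on LOAD 2 fell below the confidence minimum and was left out of the fit. The mean was 0.20 ± 0.27 (SD, n = 4) with a fold interval of 0.88 to 1.5 and an adjusted limma p of 1.00. The highest ratio came from LOAD 3, the array on which both channels had signal. Without LOAD 3 the mean was 0.09 and without LOAD 1 it was 0.31, while keeping the spot on LOAD 2 gave 0.34.

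Ptgs2 lay below its control on 4 of 5 LOAD arrays. Its log2 ratio was -0.01, -0.44, -0.56, 0.08 and -0.18 in LOAD 1 to LOAD 5. The mean was -0.22 ± 0.27 (SD, n = 5), a fold of 0.858 with an interval of 0.716 to 1.03, and limma gave an unadjusted p of 0.0904 and an adjusted p of 1.00. The lowest ratio, on LOAD 3, had signal in the control channel alone, and without LOAD 3 the mean was -0.14. Exchanging the dyes of LOAD 2, an array whose orientation the labels give, took it to -0.05.

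Nos2 lay below its control on 4 of 5 LOAD arrays too. Its log2 ratio was -0.02, -0.08, -0.31, 0.46 and -0.40 in LOAD 1 to LOAD 5. LOAD 4 was far from the others and opposite in sign. The mean of -0.07 ± 0.34 (SD, n = 5) had a fold interval of 0.768 to 1.18 and an adjusted limma p of 1.00.

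**Figure D2:**
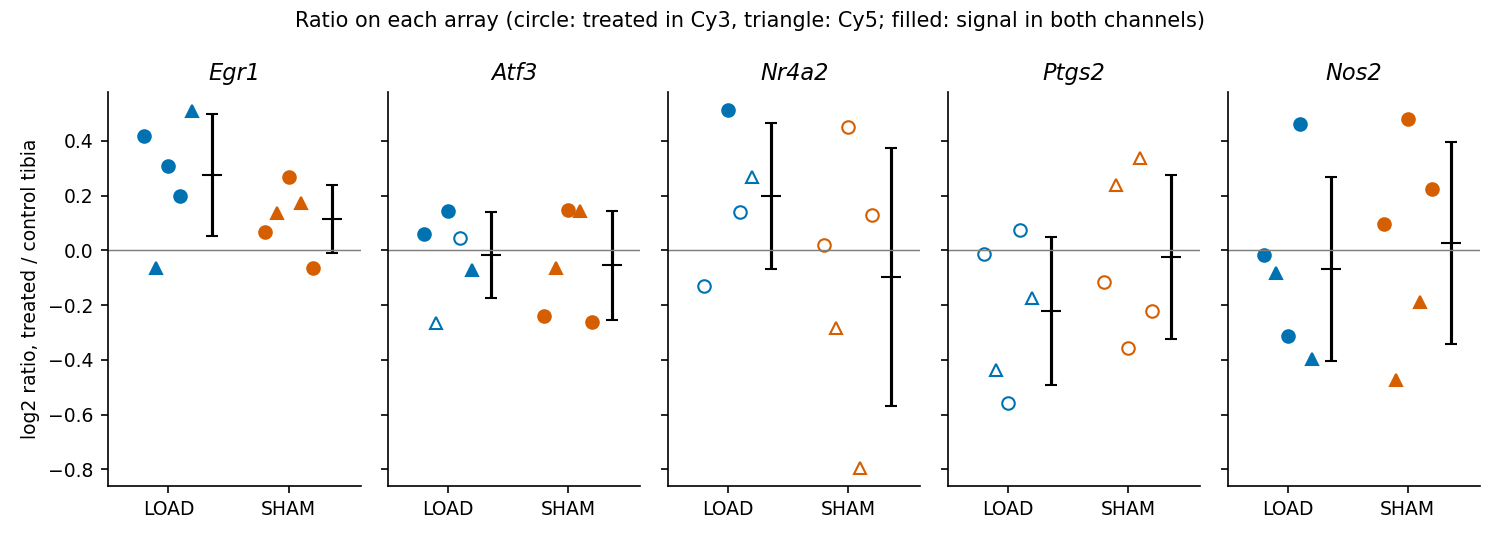
Loess-normalized log2 ratio, treated over control, on each array for the 5 genes in LOAD (blue) and SHAM (orange), with mean ± SD in black, circles for the treated tibia in Cy3 and triangles in Cy5, and filled symbols where both channels had signal. Egr1 lay above 0 on 4 of 5 LOAD and 4 of 5 SHAM arrays, and the other genes had ratios of both signs in each group.

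The second comparison asked what squeezing without bending did. For Egr1 the squeezed tibia was again the higher one in 4 of 5 rats. Its log2 ratio was 0.07 in SHAM 1, 0.14 in SHAM 2, 0.27 in SHAM 3, 0.17 in SHAM 4 and -0.06 in SHAM 5. The mean was 0.12 ± 0.12 (SD, n = 5), a 1.08-fold difference with an interval of 0.949 to 1.24, and limma gave an unadjusted p of 0.213 and an adjusted p of 1.00. Again no gene passed (0%), and 0.68% had an unadjusted p under 0.05. A ratio above 0 on at least 8 of 10 arrays, as for Egr1, was found for 3.62% of the genes without missing values, and on at least 4 arrays in both groups for 2.26%.

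The other transcription factors gave no common sign under SHAM. The log2 ratio of Atf3 was -0.24, -0.06, 0.15, 0.14 and -0.26 in SHAM 1 to SHAM 5, a mean of -0.05 ± 0.20 (SD, n = 5). That of Nr4a2 was 0.02, -0.28, 0.45, -0.79 and 0.13, a mean of -0.10 ± 0.47 (SD, n = 5). SHAM 4, with a spot confidence of 0.17, gave the lowest ratio of Nr4a2, and without it the mean was 0.08.

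The enzymes did not move one way either. The log2 ratio of Ptgs2 was -0.12, 0.24, -0.36, 0.34 and -0.22 in SHAM 1 to SHAM 5, a mean of -0.02 ± 0.30 (SD, n = 5). That of Nos2 was 0.10, -0.47, 0.48, -0.19 and 0.22, a mean of 0.03 ± 0.37 (SD, n = 5). The adjusted limma p was 1.00 for each of these 4 genes.

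The net effect of bending was taken as the LOAD ratio minus the SHAM ratio. The ratios of the groups overlapped for each of the 5 genes, and none passed the test. For Egr1 the difference was 0.16 ± 0.12 (SE) on the log2 scale, a fold of 1.12 with an interval of 0.926 to 1.35, an adjusted limma p of 0.999 and an exact permutation p of 0.190, two-sided, over 252 regroupings. The smallest p that 5 against 5 arrays allow is 0.00794. Leaving out LOAD 5, the array with the highest Egr1 ratio, left 0.10, and leaving out LOAD 2, the array with the lowest, gave 0.24, while median centring gave 0.06. Of all genes 0% passed the threshold and 1.49% had an unadjusted p under 0.05.

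The intervals of the other genes were wider or centred near 0. The fold of LOAD over SHAM was 1.03 for Atf3, with an interval of 0.852 to 1.24. For Nr4a2 it was 1.23, with 0.859 to 1.75, and for Ptgs2 0.872, with 0.675 to 1.13. For Nos2 it was 0.935, with 0.690 to 1.27. Leaving out SHAM 4 took the log2 difference of Nr4a2 from 0.29 to 0.12, and that of Ptgs2 from -0.20 to -0.11, as did leaving out LOAD 3 for Ptgs2 (-0.11), and Nr4a2 stood at 0.19 without LOAD 3. The exact permutation p was 0.794 for Atf3, 0.317 for Nr4a2, 0.302 for Ptgs2 and 0.667 for Nos2, and the adjusted limma p was 0.999 for each. For Nr4a2 and Ptgs2, near the background in most channels, the interval covers the measured ratio and sets no limit on a change of the transcript. A p that misses the threshold does not show that the groups were alike.

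**Figure D3:**
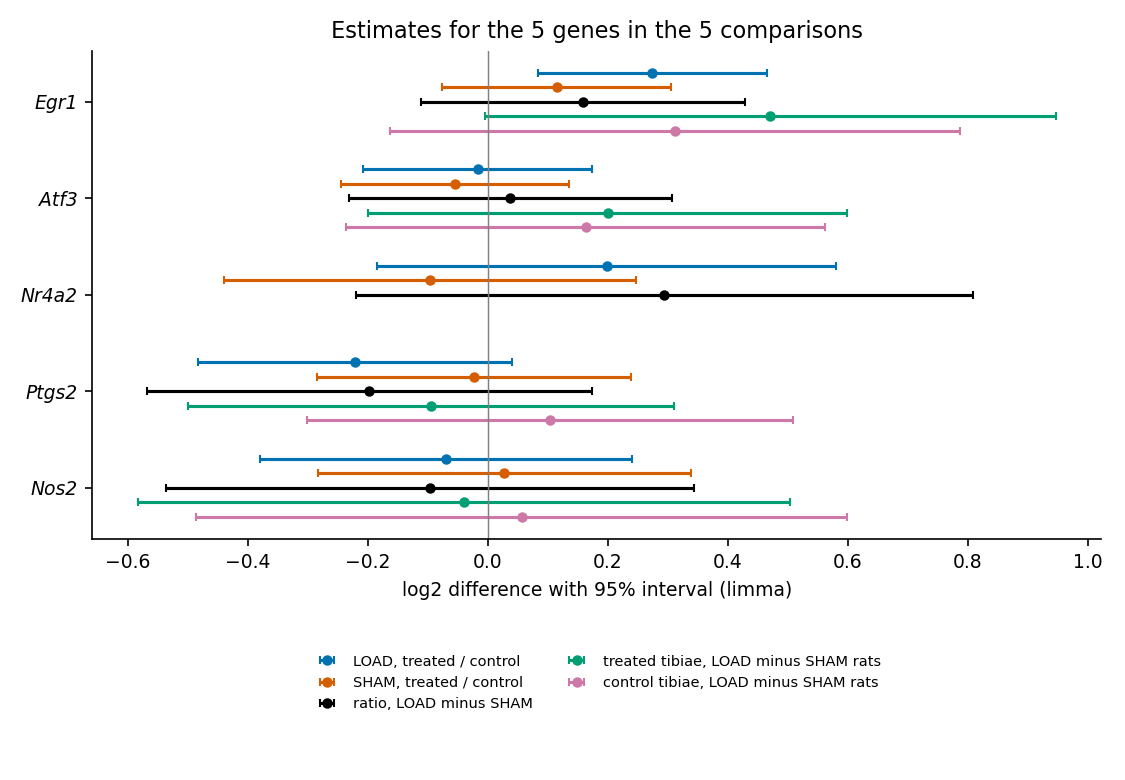
Log2 differences with 95% intervals from limma for the 5 genes, in LOAD and SHAM over the contra lateral control, for LOAD minus SHAM, and for the treated and the control tibiae of LOAD rats minus those of SHAM rats. Only the LOAD interval of Egr1, from 0.08 to 0.47 before any adjustment, lay to one side of 0, and Nr4a2 has no level estimates because 1 of its values was missing.

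The level in each tibia, a normalized log2 intensity that can be set side by side between arrays for the same gene, differed between the arrays. For Egr1 the loaded tibiae of LOAD 1 to LOAD 5 stood at 8.56, 8.82, 8.48, 9.57 and 9.08, and their controls at 8.14, 8.88, 8.17, 9.37 and 8.57. In SHAM 1 to SHAM 5 the squeezed tibiae stood at 8.13, 8.40, 8.55, 9.08 and 8.0, and their controls at 8.06, 8.27, 8.28, 8.91 and 8.06. Both tibiae of an array lay close together, and the arrays numbered 4 held the highest control level of each group. By the image dates of the file headers these arrays were scanned as a batch of their own. The mean Egr1 level was 9.23 in that batch and 8.41, 8.37 and 8.43 in the other batches. The parts of rat, array and scan batch in these levels cannot be told apart. The Pearson correlation of treated with control level over the 10 arrays was 0.918, a description of channels that share an array, a hybridization and, by the labels, a rat. The SD of the Egr1 ratio over the 10 arrays was 0.19, and that of its level in the control tibiae 0.45.

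Between the groups, the Egr1 level of the treated tibiae was higher in LOAD rats by 0.47 ± 0.23 (SE) on the log2 scale, a fold of 1.39 with an interval of 0.997 to 1.93. The adjusted limma p was 0.924 and the exact permutation p 0.119. The contra lateral controls, which were not treated in either group, differed in the same direction by 0.31 ± 0.23 (SE), a fold of 1.24 with an interval of 0.893 to 1.73, an adjusted limma p of 0.870 and an exact permutation p of 0.325. No gene of 4472 passed in either of these comparisons (0%), and 4.85% of them for the treated and 5.3% for the control tibiae had an unadjusted limma p under 0.05. Without LOAD 4 the Egr1 difference was 0.30 between the treated and 0.13 between the control tibiae. Without SHAM 4 it was 0.63 and 0.46, with unadjusted limma p of 0.0125 and 0.0596. Either omission leaves the scan batch of the arrays numbered 4, with its high Egr1 levels, in the other group alone.

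The levels of the other genes did not part LOAD from SHAM rats. For Atf3 the loaded tibiae stood at 7.66, 7.12, 7.19, 7.69 and 7.80 and the squeezed at 7.23, 7.57, 7.16, 7.73 and 6.78, a difference of 0.20 ± 0.19 (SE). Its controls lay between 7.05 and 7.87 in LOAD and between 7.01 and 7.63 in SHAM rats, a difference of 0.16 ± 0.19 (SE). As for Egr1, both tibiae went together, with a correlation of 0.868 over 10 arrays. For Nos2 the loaded tibiae stood at 9.60, 8.45, 9.07, 9.34 and 8.49 and the squeezed at 9.12, 8.62, 9.29, 8.74 and 9.38. Its difference was -0.04 ± 0.26 (SE) between the treated and 0.06 ± 0.26 (SE) between the control tibiae. Nos2 levels of the control tibiae ranged from 8.53 to 9.62 in LOAD and from 8.81 to 9.16 in SHAM rats, so the LOAD rats spread more widely, with SDs of 0.43 and 0.13. For Ptgs2 the loaded tibiae lay between 6.15 and 6.49 and the squeezed between 6.07 and 6.65, and treated and control levels had a correlation of -0.06 over 10 arrays. The adjusted limma p of these 3 genes lay between 0.900 and 0.995 in the level comparisons.

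**Figure D4:**
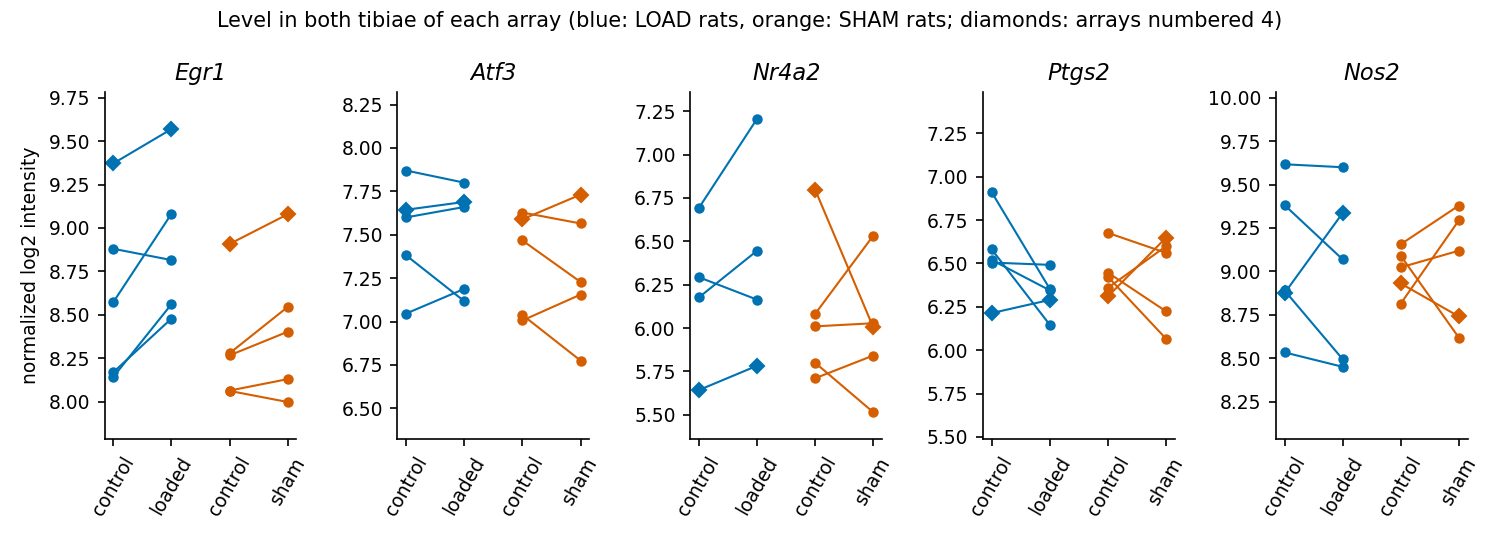
Normalized log2 intensity in the control and the treated tibia of each array, joined by a line, for the 5 genes in LOAD (blue) and SHAM (orange) rats, with each panel spanning the same range and diamonds for the arrays numbered 4. The lines of Egr1 lie at different heights but run nearly parallel (correlation of 0.918 between tibiae over 10 arrays), and the arrays numbered 4 hold the highest Egr1 control levels, 9.37 in LOAD and 8.91 in SHAM.

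The arrays were scanned in 4 batches by the image dates of the file headers, each with arrays of both groups. Within them the Egr1 difference of LOAD minus SHAM was 0.08 with 2 arrays a group, and 0.04, 0.03 and 0.57 with 1 array a group. It was above 0 in each, which was not counted over all genes, and the batch of LOAD 5 and SHAM 5 stood apart from the other 3. The median SD of a log2 ratio over the 10 arrays was 0.234 for the genes without missing values. With scan batch as a block the Egr1 difference was 0.16 and its unadjusted limma p 0.286. The same differences for Nos2 were 0.14, -0.79, 0.65 and -0.62, which do not share a sign. For Ptgs2 they were -0.29, -0.20, -0.26 and 0.05, for Atf3 0.05, -0.01, -0.10 and 0.19, and for Nr4a2 0.01, 0.06, 0.93 and 0.14.

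**Figure D5:**
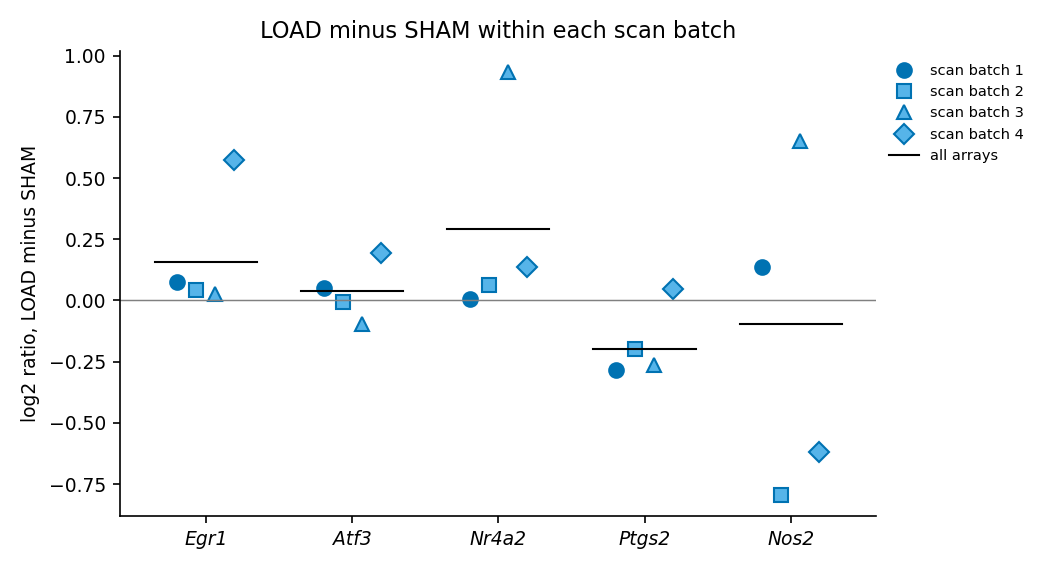
LOAD minus SHAM difference of the log2 ratio within each scan batch for the 5 genes, with 2 arrays a group in batch 1 and 1 array a group in the others, and a line for the difference over all arrays. Egr1 lies between 0.03 and 0.08 in 3 batches and at 0.57 in batch 4, and Nos2 runs from -0.79 to 0.65.

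The ratios of Nos2 and Nr4a2 differed most between the dye orientations. For Nos2, on the 4 arrays with the treated tibia in Cy5 its ratio was below 0 on each, with a mean of -0.29, and on the 6 arrays with the treated tibia in Cy3 it was above 0 on 4, with a mean of 0.16. Each group held 3 arrays of the one and 2 of the other orientation, and with a dye term the SHAM estimate of Nos2 went from 0.03 to -0.02. For Nr4a2 the mean was 0.19 in Cy3, above 0 on 5 of 6 arrays, and -0.27 in Cy5, above 0 on 1 of 3. This gap lay in SHAM, with 0.20 in Cy3 and -0.54 in Cy5. In LOAD the Nr4a2 mean was 0.175 in Cy3 and 0.269 in Cy5, the latter from LOAD 5 alone. With a dye term shared by both groups the LOAD estimate of Nr4a2 went from 0.20 to 0.09. For Egr1 the means were 0.20 in Cy3 and 0.19 in Cy5. The part of the dye in the Nos2 and Nr4a2 ratios was not tested.

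The file headers number the tibiae, and 8 arrays hold consecutive numbers. LOAD 4 holds tibiae 3 and 26 and SHAM 4 holds 25 and 4, so that by these numbers their controls may have been exchanged, while the labels pair them as used here. Setting tibia 3 against 4 and 25 against 26, an alternative chosen after the data were seen, put Egr1 at 0.37 in LOAD and 0.34 for LOAD minus SHAM, with an unadjusted limma p of 0.0504 for the latter. Without both arrays the values were 0.29 and 0.19. Nr4a2 turned sign in all 3 comparisons under the exchange, to -0.09 in LOAD, 0.13 in SHAM and -0.23 for LOAD minus SHAM.

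Other genes of the same pathways showed no common change. Of 46 other early response transcription factors and feedback genes listed, 9 were measured, 4 higher and 5 lower in LOAD, with a median log2 ratio of -0.04 beside -0.01 over all 4707 genes. Egr4, a relative of Egr1, lay below its control on all 5 LOAD arrays, at -0.23 ± 0.09 (SE) with signal in 8 of 20 channels. The unadjusted p in limma was 0.0238 and the adjusted p 1.00. Egr3, another relative of Egr1, had signal in 19 of 20 channels. It gave -0.08 ± 0.14 (SE) in LOAD and was above its control on 3 of 5 LOAD arrays. Arc, a neuronal early response gene, gave -0.19 ± 0.25 (SE) for LOAD minus SHAM. In LOAD, Sgk1, a serum- and glucocorticoid-induced kinase, gave 0.08 ± 0.08 (SE) and Fosl1, an AP-1 subunit, 0.15 ± 0.16 (SE) without signal in any channel. Of the ATF, CREB and C/EBP family 2 of 19 were measured. In LOAD, Cebpd stood at -0.15 ± 0.09 (SE) without signal in any channel and Cebpa at -0.18 ± 0.25 (SE).

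Of 27 prostaglandin pathway genes listed beside Ptgs2, 8 were measured, 4 higher and 4 lower in LOAD, and none passed. Ptgs1, the constitutive cyclooxygenase, had signal in 20 of 20 channels and gave 0.12 ± 0.11 (SE) in LOAD and 0.13 ± 0.16 (SE) for LOAD minus SHAM. The phospholipase Pla2g5 gave 0.29 ± 0.15 (SE) for LOAD minus SHAM with signal in 1 channel, Tbxas1, which makes thromboxane, -0.21 ± 0.15 (SE), and Alox5, which leads to leukotrienes, 0.17 ± 0.12 (SE). Of 27 nitric oxide pathway genes listed beside Nos2, 7 were measured, 2 higher and 5 lower in LOAD. The arginases, which use the same substrate as Nos2, gave 0.12 ± 0.11 (SE) for Arg1 and -0.15 ± 0.13 (SE) for Arg2 in LOAD, the latter without signal in any channel.

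Of the signalling genes upstream, 12 of 24 for cAMP and protein kinase A were measured, 7 higher and 5 lower in LOAD. Pde4b, a phosphodiesterase that breaks down cAMP, had a LOAD minus SHAM difference of -0.32 ± 0.11 (SE). In limma the unadjusted p of this difference was 0.0159 and its adjusted p 0.999. The Pde4b ratio was -0.12 in LOAD and 0.20 in SHAM, so the larger part of the difference came from SHAM. Pthlh, a ligand that raises cAMP in osteoblasts, gave a difference of 0.35 ± 0.18 (SE), with 0.18 in LOAD and -0.17 in SHAM. Of 25 MAP kinase cascade genes 6 were measured, 4 higher and 2 lower in LOAD, and Mapk10 gave 0.35 ± 0.16 (SE) for LOAD minus SHAM with signal in 1 channel. No gene of these lists passed the threshold in any of the 5 comparisons.

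The 3 genes whose ratios over the 10 arrays were most like those of Egr1, among 559 named genes with signal in every channel, were Rheb (Pearson r = 0.872), Tgm2 (0.843) and Sod2 (0.817). Their mean ratios in LOAD were 0.04, 0.13 and 0.09. For Atf3 they were Mpdz (0.789), Exoc6 (0.720) and Lypla1 (0.714), and for Nos2 Msmb (0.877), Akt2 (0.866) and Gpd2 (0.862). These are the highest of many correlations over 10 arrays that share dye and batch, given as a description. Between the members, the ratio of Egr1 correlated at 0.64 with Atf3 and at -0.25 with Nos2, and Nr4a2 at -0.90 with Ptgs2 over the 9 arrays with both, at intensities near the background.

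The tissue was a mixture of cells, and in such samples fewer cells of a type and less RNA per cell cannot be told apart. Of 7 osteoblast and osteocyte markers measured, 6 had signal in every channel. No marker of another tissue passed the threshold in any comparison. Of 16 skeletal muscle genes 13 were lower in LOAD and 11 were higher in SHAM. A lower value in LOAD with an unadjusted limma p under 0.05 was found for 8 of the 16. Beside these, 2496 of all 4707 genes were lower in LOAD and 2412 higher in SHAM. Of the 4707, 81 (1.72%) were lower in LOAD with such a p. The log2 of the summed intensity of the 15 muscle genes without missing values lay between 13.4 and 13.7 in the loaded tibiae of LOAD rats. In their control tibiae it lay between 13.5 and 14.3. Of 7 macrophage and leukocyte genes 6 were higher in LOAD, beside 2211 of all 4707 genes. A higher value in LOAD with an unadjusted limma p under 0.05 was found for 2 of the 7, beside 76 of all 4707 genes (1.61%). These 2 were Cd53, with signal in every channel, and Il18, with signal in 1 of 20. Of the 7 genes 2 had signal in every channel and Tnf in none. The sums were 12.9 to 15.7 in the loaded and 13.1 to 15.4 in the control tibiae of LOAD rats.

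On single arrays the muscle sum and the macrophage and leukocyte sum varied more than the Egr1 ratio. Such sums add intensities, so the brightest gene of a list weighs most. This was Lyz2 for the macrophage and leukocyte genes, at a mean level of 14.51, with Cd53 next at 9.99. Cd53 was higher on all 5 LOAD arrays. The brightest erythroid gene was Alas2 (13.33) and the brightest osteoblast and osteocyte gene Sparc (14.1). LOAD 2, with the lowest Egr1 ratio of its group, had the highest log2 ratio of the summed macrophage and leukocyte genes (1.58) and of the summed erythroid genes (1.02). LOAD 5, with the highest Egr1 ratio, had the lowest of both (-1.10 and -1.08) and -1.35 for the osteoblast and osteocyte genes. On LOAD 1, LOAD 3 and LOAD 4, with Egr1 ratios of 0.42, 0.31 and 0.20, the macrophage and leukocyte sums stood at 0.14, 0.32 and 0.79 and the erythroid sums at -0.18, -0.42 and 0.38. Over the 5 LOAD arrays the Egr1 ratio and the macrophage and leukocyte sum ran in opposite order, exact for this list alone. On LOAD 2 and LOAD 5 the skeletal muscle sums stood at -0.13 and -0.18 and the endothelium sums at 0.08 and -0.02. The adipocyte sums there were -0.13 and 0.50. In SHAM 1 to SHAM 5 the macrophage and leukocyte sum stood at 0.24, -0.43, -0.16, -0.19 and 0.41. It was positive on SHAM 1 and SHAM 5, the arrays with the lowest Egr1 ratios of that group. The part of the cell mixture in the Egr1 ratios was not tested.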

How the data were processed

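Each array held the treated tibia and the contra lateral control tibia of 1 rat. The authors quantified the spots with BlueFuse, version 2.0 by the file headers and another version by the study's methods. The files give 1 fused value for duplicate spots, which the study's methods treat as separate. The deposited files hold an intensity per channel without normalization, and per spot 2 quality values written as a fraction, the confidence and the probability of signal. The deposited matrix holds log2 ratios of treated to control that equal the unnormalized intensity ratios to within 0.000527. For SHAM 1 a single label field says LOAD, while its title, description and file header say SHAM, so it entered as SHAM. Between 32 and 166 spots an array had a confidence under 0.11 and were set to missing. Spots flagged by eye in the study were not identified here.

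Ratios were normalized by loess within each array (span 0.3, 4 iterations). Accessions with at most 1 missing value were fitted in limma 3.58.1 (R 4.3.3) with a mean for LOAD and for SHAM, moderated statistics and Benjamini-Hochberg adjustment over 4707 accessions, at a false discovery rate of 20%. Levels entered the single channel fit of limma (lmscFit) after Aquantile normalization over 4472 accessions without missing values. Exact tests flipped signs within a group or regrouped 10 arrays. Normalization, filter, dye, batch and array alternatives were tried, and the fits were tested on simulated data.

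Names came from a RefSeq table (GRCr8), which named 1177 of 4803 accessions. The members, gene lists and tests were chosen with earlier results of these data known. The named genes were the 5 members, up to 4 per pathway list by p, of which a selection is given, and Egr3, a relative of Egr1. The 3 genes most like each member with signal in at least 10 of 20 channels were named too. The oligonucleotides can bind other transcripts, per the study's methods. With 5 arrays a group, the number of arrays limits the precision.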

Additional observations from a re-analysis of the deposited data

Results flagged for a closer look

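The Egr1 level in the control tibia of SHAM 4 was 8.91, the highest of the 5 SHAM control tibiae, and the next was 8.28, a gap of 0.744 of the whole range. Of 30 groups of values checked for such a distance this was 1, and about 1 in 20 is flagged by chance. Its squeezed partner on the same array, at 9.08, was also the highest of its group. By the tibia numbers of the file headers this control is tibia 4, next to the loaded tibia 3 of LOAD 4, whose Egr1 level was 9.57. LOAD 4 and SHAM 4 also share a scan batch of their own. Its mean Egr1 level was 9.23, beside 8.41, 8.37 and 8.43 in the other batches. The cause of the high level was not tested.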

How the results depend on the processing

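The 5 genes stayed short of the 20% false discovery rate in each alternative that was run. In all, 523 values were recomputed, among them the counts of all genes past the threshold. Of these values 492 kept direction and side of the threshold, or the same count. Another 29 turned sign, and 2 counts rose. Egr1 kept its sign throughout except in SHAM without normalization (-0.28). The deposited log2 ratios without normalization had medians over all genes of -0.23 in LOAD and -0.42 in SHAM, and 0.19 for their difference. In them Nos2 stood at -0.40 in SHAM and 0.10 for LOAD minus SHAM, Ptgs2 at 0.12 for LOAD minus SHAM, and Egr1 at 0.01 in LOAD. Relative to those medians Egr1 was 0.23 in LOAD, 0.14 in SHAM and 0.10 for the difference. There 9 genes passed in LOAD and 2 in LOAD minus SHAM, none of them among the 5, against 0 in the other settings. The cause was not tested. Atf3 in LOAD turned to 0.02 with median centring, 0.01 with scan batch as a block and 0.09 with the dyes of LOAD 2 exchanged. Nos2 in SHAM turned to -0.02 with a dye term. Nr4a2 in SHAM turned to 0.08 without both arrays numbered 4, and with their tibiae compared by header numbers, chosen after seeing the data, Nr4a2 turned to -0.09 in LOAD, 0.13 in SHAM and -0.23 for the difference. Leaving out 1 array at a time gave ranges across 0 for Atf3 in LOAD (-0.06 to 0.04) and in the difference (-0.01 to 0.10), for Nos2 in LOAD (-0.20 to 0.01), SHAM (-0.09 to 0.15), the difference (-0.23 to 0.02) and between control (-0.08 to 0.19) and treated tibiae (-0.19 to 0.09), for Nr4a2 in SHAM (-0.23 to 0.08) and for Ptgs2 in SHAM (-0.11 to 0.06). Egr1 ranged from 0.22 to 0.36 in LOAD, 0.08 to 0.16 in SHAM and 0.10 to 0.24 in the difference. Nr4a2 ranged from 0.09 to 0.31 in LOAD and 0.12 to 0.43 in the difference, and Ptgs2 from -0.30 to -0.14 and -0.28 to -0.11. With the dyes of LOAD 2 exchanged, Ptgs2 stood at -0.05 in LOAD and -0.02 in the difference. In the ratios the shared replicate numbers did not pair the arrays (correlations of deviations from -0.408 to 0.0672). The replicate block left the Egr1 difference at 0.16 and changed no call. Pairing was not checked in this way for the levels. With the replicate block the Egr1 level differences had unadjusted limma p of 0.0402 for the treated and 0.099 for the control tibiae.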
